A study of Mus musculus with 26 samples.

Results

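The genes described here are 10 members of the machinery that fuses and divides mitochondria, out of 50686 genes listed in the counts of mouse BAT: Mfn1, Mfn2, Opa1, Oma1, Yme1l1, Dnm1l, Fis1, Mff, Mief1 and Mief2. They were chosen by name, and all 10 passed the filter on low counts that left 17286 genes to test. Fusion of the outer mitochondrial membrane is carried out by the GTPases Mfn1 and Mfn2, and fusion of the inner membrane by Opa1, whose long forms are cut by the proteases Oma1 and Yme1l1. Fission is driven by Drp1, the dynamin-like GTPase encoded by Dnm1l, which is brought to the outer membrane by Mff, Mief1 (MiD51), Mief2 (MiD49) and, in some settings, Fis1. In brown adipocytes the network is known to fragment when the cell is activated by noradrenaline, and Mfn2 also sits at contacts between mitochondria and lipid droplets or the endoplasmic reticulum.

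BAT labelled as supraclavicular was taken from 26 male C57BL/6J mice aged 12 to 16 weeks, housed individually for 2 weeks at thermoneutrality (30 °C in the labels, 29 °C in the study's methods). At thermoneutrality there were 7 control (WT) mice and 7 mice labelled Afadin KO, which the study calls FAKO, and after a further 6 h at 5 °C there were 5 control mice and 7 mice labelled KO. The KO combines floxed Mllt4 alleles, now named Afdn, with Cre under the adiponectin promoter, which is active in white as well as brown adipocytes, and the controls were littermates. Total counts ran from 12705969 to 25732258 per mouse, and levels are given as normalized counts (CPM, scaled to the library size with TMM factors).

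Afdn, the targeted gene, had mean levels of 196 ± 21.0 and 195 ± 27.4 CPM (SD, n = 7 each) without and with the KO label at thermoneutrality. The log2 fold change was -0.01 ± 0.08 (SE), with an adjusted p of 0.992 (edgeR, quasi-likelihood test, adjusted over all genes by Benjamini-Hochberg). After cold it had 73.5 ± 4.27 CPM (SD, n = 5) and 58.5 ± 4.15 CPM (SD, n = 7), and these groups did not overlap. That change of -0.33 ± 0.09 (SE) did not pass over all genes in edgeR (adjusted p = 0.116), whereas DESeq2's Wald test gave -0.32 with an adjusted p of 0.0478. Because Afdn did not differ detectably at thermoneutrality, groups are named by their label. All 7 brown adipocyte markers were detected, with a summed level of 7127 to 8999 CPM at thermoneutrality and 25382 to 32285 CPM after cold. Of these, Ucp1 and Fabp4 were higher after cold without overlap in both genotypes, and Cidea, Plin1, Cox8b and Pparg overlapped. Adipoq was lower without overlap, from 820 to 1220 CPM down to 518 to 607 CPM in control mice. With the KO label it went from 767 to 1130 CPM down to 506 to 754 CPM. The 6 skeletal muscle markers varied within every group, from 0.82 to 7039 CPM in sum, and 4 libraries exceeded 3000 CPM. Reads from mitochondrially encoded genes took 14.3 to 40.5% of a library's counts. At thermoneutrality the median share was 37.2% in control mice and 28.3% in mice labelled KO, and after cold it was 27.6% and 28.0%.

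The 100 bases before the RefSeq start site are shown for Mfn1, Yme1l1, Mief1 and Mff, which were higher after cold in both genotypes. Opa1, which passed the threshold in neither, and Oma1, which was lower in both, follow. Mfn2 and Dnm1l, also higher in both, are not shown, nor are Fis1 and Mief2. The sequences are printed 5′ to 3′ in the direction of the gene, all on the + strand, from RefSeq on GRCm38.p6. Their positions are chr3:32529382-32529481, chr2:23156405-23156504, chr15:80233980-80234079, chr1:82724790-82724889, chr16:29579234-29579333 and chr4:103313746-103313845, in that order, and the RefSeq start sites lie 17, 136, 62, 0, 0 and 34 bases from the gene starts in GENCODE. Where the start sites differ, the RefSeq one lies downstream. The whole Yme1l1 window, with its matches, thus lies within the gene in GENCODE, as do the last bases of the Mfn1, Mief1 and Oma1 windows. The capitals mark matches on either strand. They are to CCGGAAG, the core bound by ETS factors such as GABP, in Mfn1, Yme1l1 and Mief1. In Opa1 and Oma1 they are to GCGCANGCGC, an element bound by NRF1. The Oma1 match, printed as GCGCCTGCGC, lies on the opposite strand, and the Opa1 match reads the same on both strands.
Mfn1: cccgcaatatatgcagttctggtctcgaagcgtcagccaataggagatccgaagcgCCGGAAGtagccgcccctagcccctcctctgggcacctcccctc
Yme1l1: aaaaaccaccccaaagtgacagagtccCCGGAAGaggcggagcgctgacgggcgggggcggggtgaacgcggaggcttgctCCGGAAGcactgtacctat
Mief1: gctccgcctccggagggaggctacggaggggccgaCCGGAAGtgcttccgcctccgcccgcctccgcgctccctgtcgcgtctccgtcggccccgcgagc
Mff: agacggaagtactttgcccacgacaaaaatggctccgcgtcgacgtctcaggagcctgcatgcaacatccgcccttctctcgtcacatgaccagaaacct
Opa1: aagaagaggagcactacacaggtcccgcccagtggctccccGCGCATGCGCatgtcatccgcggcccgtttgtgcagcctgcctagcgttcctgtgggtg
Oma1: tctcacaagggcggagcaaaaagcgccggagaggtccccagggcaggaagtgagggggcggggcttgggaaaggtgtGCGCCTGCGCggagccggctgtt
Both factors are known to drive many nuclear genes for mitochondrial proteins. Among the 250 bases before the start of 32851 RefSeq windows, searched on both strands, 6.91% held CCGGAAG and 3.74% held GCGCANGCGC. Of the 10 members, Mfn1, Yme1l1, Fis1 and Mief1 held the first and Opa1 and Oma1 the second. Mfn2, Mff and Dnm1l, which were also higher after cold in both genotypes, held neither. Yme1l1 held CCGGAAG at 2 places, from -73 and from -19 relative to the start site. The E-box CACGTG, found in 6.02% of the windows, stood in Mief2, and no member held the cAMP response element TGACGTCA (1.55%) or the ERR element TCAAGGTCA (0.387%). A match describes the letters in this window and not binding. The same element stood before a gene that was lower after cold (Oma1) and before a gene that did not pass the threshold (Opa1).

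Levels were compared between members per kilobase of annotated exon. Mfn2 had the highest level in every group, with 56.0 ± 2.30 CPM per kb (SD, n = 7) in control mice at thermoneutrality and 69.2 ± 5.84 CPM per kb (SD, n = 5) after cold. Opa1 came next with 31.7 ± 2.25 and 31.7 ± 0.88 CPM per kb, followed by Dnm1l with 20.6 ± 1.91 and 23.7 ± 1.60 CPM per kb. The ranges of Mfn2, Opa1 and Dnm1l did not overlap. Oma1 had the lowest level, with 5.02 ± 0.23 CPM per kb at thermoneutrality and 2.47 ± 0.41 after cold, below the range of Mief1, the next lowest, which had 6.19 ± 0.24 and 8.33 ± 0.34 CPM per kb. In the middle of the order, Dnm1l, Fis1 and Yme1l1 overlapped their neighbours in control mice. The mice labelled KO had Mfn2, Opa1 and Dnm1l at the top and Oma1 at the bottom in the same order, at 53.1, 30.6, 20.3 and 4.78 CPM per kb at thermoneutrality and 70.7, 32.3, 24.3 and 2.41 after cold. With the longest transcript as the length, Mfn2 and Oma1 kept the first and the last place and Opa1 the second, whereas Fis1 or Yme1l1 stood in the place after Opa1.

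**Figure D1:**
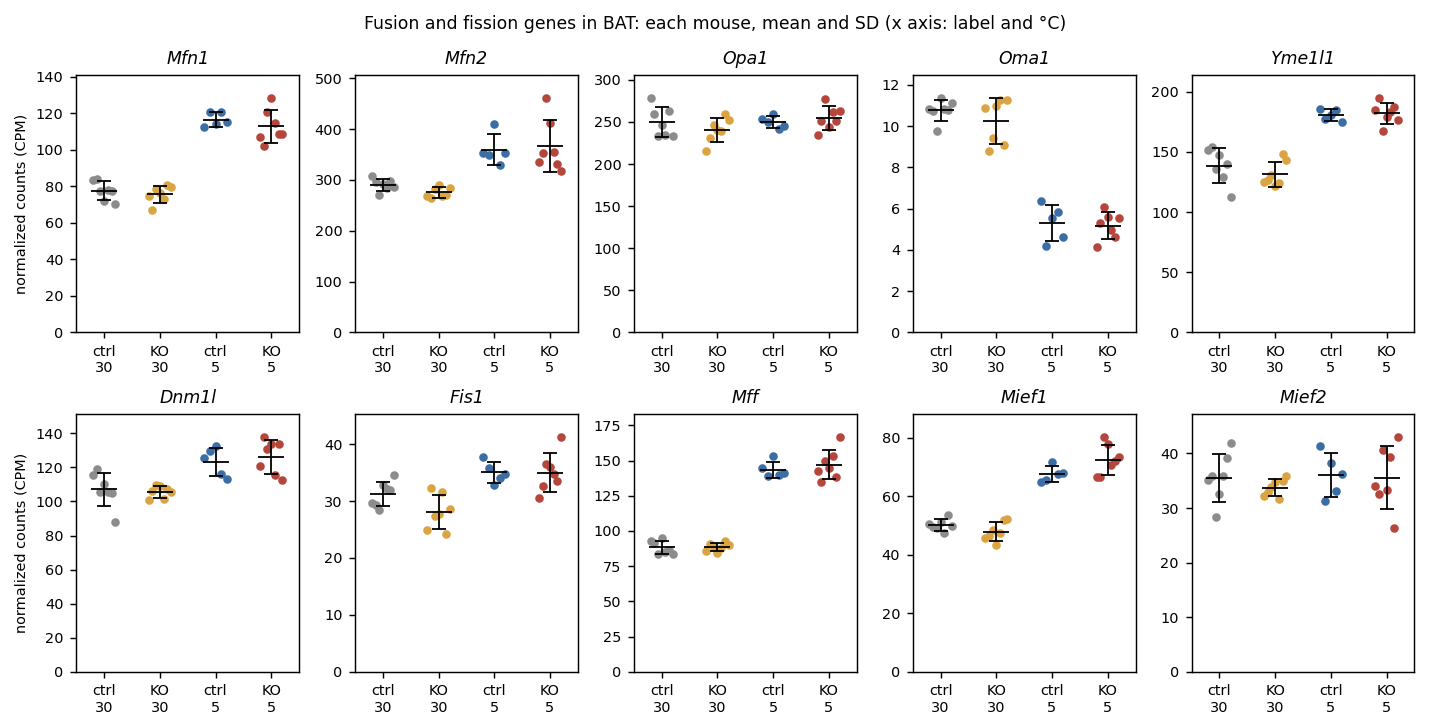
Normalized counts (CPM, y axis from 0) of the 10 fusion and fission genes in each of the 26 mice, by label and temperature in °C on the x axis, with the mean and SD in black. Mfn1, Mfn2, Yme1l1, Mff and Mief1 were higher in every mouse at 5 °C than in any at 30 °C. Oma1 was lower in every mouse, and the ranges of Opa1, Dnm1l, Fis1 and Mief2 overlapped.

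The question of the first pair of comparisons is what 6 h of cold did to these genes in each genotype. In control mice, Mff, Mfn1, Mief1, Yme1l1, Mfn2 and Dnm1l rose and Oma1 fell, and Opa1, Fis1 and Mief2 did not pass the threshold. With the KO label the same 6 genes rose, as did Fis1, Oma1 fell, and Opa1 and Mief2 did not pass. The rises were between 1.15-fold and 1.66-fold, and Oma1 fell to 0.49-fold of its level at thermoneutrality in control mice and 0.51-fold in mice labelled KO.

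Thus 6 of 10 members rose in control mice, where 31.6% of all genes tested rose, and 1 fell, where 33.4% fell. Of the members in mice labelled KO, 7 rose against 33.7% of all genes and 1 fell against 34.9%. Changes in either direction were as common among all genes (65% and 68.6%), so that a call for cold does not set these genes apart, and their size was moderate. The median absolute log2 fold change over all genes tested was 0.55 in both genotypes, and only Mff, Mfn1 and Oma1 exceeded it in control mice, with Mief1 in addition in mice labelled KO. The groups did not overlap for 6 members in control mice (46.4% of all genes) and for 7 in mice labelled KO (40.4%). The median log2 fold change over the 10 members was 0.26 and 0.36, against -0.01 and -0.03 over all genes. These directions were tied to the scaling, more so in mice labelled KO. Library size alone moved the median of all genes to -0.14 and -0.34. Under it 5 members rose and 1 fell in control mice. In mice labelled KO, 3 members rose (Mfn1, Mff and Mief1) and 2 fell (Oma1 and Opa1). Relative to the median of all genes, 9 members lay above it and Oma1 below it in both genotypes under each of the 4 scalings tried. A change of scaling moves that median along with the genes, so that agreement between scalings here is no separate evidence.

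**Figure D2:**
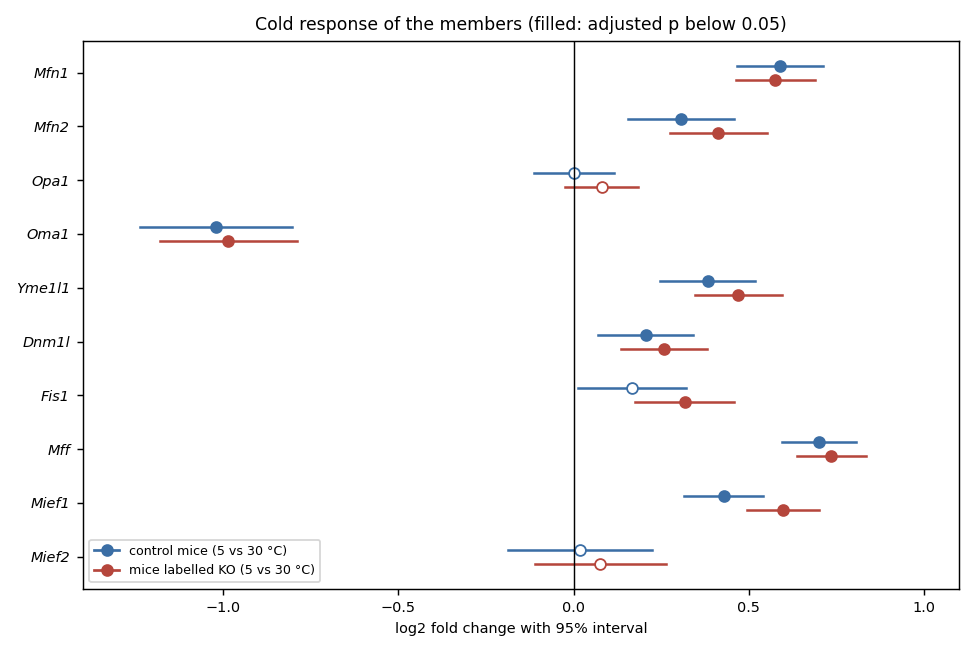
Log2 fold changes of the 10 members between 5 °C and thermoneutrality (x axis, points with 95% intervals) in control mice (blue) and mice labelled KO (red), filled where the adjusted p was below 0.05 with TMM scaling. Mff and Mfn1 lie farthest to the right and Oma1 to the left, while Opa1 and Mief2 lie around 0; with library size alone, 3 members rose and 2 fell in mice labelled KO.

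The libraries differed between temperatures in other ways. The summed level of 4 RNAs retained in the nucleus (Neat1, Malat1, Meg3 and Kcnq1ot1) was 8951 to 10573 CPM in control mice at thermoneutrality and 14840 to 16273 CPM after cold, and 10423 to 11779 and 10340 to 13577 CPM in mice labelled KO, whose ranges overlapped. The 5 endothelial markers summed to 399 to 603 CPM at thermoneutrality and 610 to 868 CPM after cold. Tek, an endothelial receptor on that list, went the other way without overlap, from 52.4 to 72.8 CPM down to 33.0 to 43.1 CPM in control mice and from 60.2 to 72.4 CPM down to 26.4 to 41.9 CPM in mice labelled KO. The part of these RNAs in the results was not tested, and in bulk tissue fewer cells of a type and less RNA per cell cannot be told apart.

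Mfn1 and Mfn2, which tether and fuse the outer membranes, both rose. Mfn1 (ENSMUSG00000027668.13, chr3:32529465-32579239 on mm10) had a lowest, median and highest level of 70.0, 77.4 and 84.0 CPM in the 7 control mice at thermoneutrality. After cold, the 5 control mice had 112, 120, 114, 121 and 115 CPM. In the 7 mice labelled KO the corresponding levels were 67.2, 76.3 and 80.5 CPM at thermoneutrality and 102, 108 and 128 CPM after cold. Every mouse at 5 °C was above every mouse at thermoneutrality, and the log2 fold change was 0.59 ± 0.06 (SE, adjusted p = 1.81e-09, edgeR) in control mice and 0.57 ± 0.05 (adjusted p = 5.21e-10) with the KO label. Stretches of Mfn1 transcripts match repeats in those of other genes at 95% identity or more over at least 100 bases, so that a part of its reads could be shared.

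Mfn2 (ENSMUSG00000029020.13, chr4:147873599-147904704) had 271, 292 and 308 CPM as the lowest, median and highest level in control mice at thermoneutrality. The 5 control mice at 5 °C had 354, 350, 411, 330 and 354 CPM. The mice labelled KO had 265, 270 and 291 CPM before and 319, 354 and 461 CPM after cold. The groups again did not overlap, and the change was smaller than that of Mfn1, with 0.31 ± 0.07 (SE, adjusted p = 0.000598, edgeR) and 0.41 ± 0.07 (adjusted p = 4.72e-06). The 2 highest values after cold in mice labelled KO, 461 and 413 CPM, came from the libraries with 3526 and 7039 CPM of skeletal muscle markers. The same 2 libraries had the 2 highest values in that group for Mfn1 (120 and 128 CPM) and for Mief1 (80.2 and 77.9 CPM). They also had the lowest TMM factors of all libraries (0.769 and 0.759). Control replicate 16 at 5 °C and control replicate 7 at thermoneutrality also exceeded 3000 CPM of muscle markers. These had the lowest Mfn1 of their groups (112 and 70.0 CPM), with Mfn2 at 354 and 286 CPM and Mief1 at 64.8 and 49.7 CPM. The part of muscle or of scaling in these values was not tested. Without the 4 libraries above 3000 CPM the log2 fold change of Mfn2 in mice labelled KO was 0.29 (adjusted p = 3.59e-05, edgeR) and in control mice 0.30 (adjusted p = 0.000101).

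Opa1 and its proteases went different ways. Opa1 (ENSMUSG00000038084.16, chr16:29579334-29654884) had 233, 247 and 279 CPM as the lowest, median and highest level in control mice at thermoneutrality and 254, 251, 259, 241 and 245 CPM in the 5 control mice after cold. The mice labelled KO had 216, 241 and 259 CPM before and 235, 251 and 278 CPM after. The groups overlapped, and the log2 fold change was 0.00 with a 95% interval of -0.11 to 0.11 in control mice and 0.08 with an interval of -0.02 to 0.18 in mice labelled KO (adjusted p = 0.995 and 0.156, edgeR). These intervals leave room for a change of that size only, although with library size alone the value in mice labelled KO was -0.24 (adjusted p = 0.00897, edgeR).

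Oma1 (ENSMUSG00000035069.3, chr4:103313812-103371868), a metalloprotease of the inner membrane that cuts Opa1 under stress, was the only member that fell. Its level was 9.75, 10.8 and 11.4 CPM (lowest, median, highest) in control mice at thermoneutrality and 6.35, 4.18, 5.54, 5.82 and 4.61 CPM in the 5 control mice after cold. In mice labelled KO it was 8.78, 10.9 and 11.3 CPM, then 4.12, 5.32 and 6.06 CPM. No mouse at 5 °C reached any mouse at thermoneutrality, although the counts behind these levels were low, between 59 and 242 per mouse. The log2 fold change was -1.02 ± 0.10 (SE, adjusted p = 2.76e-09, edgeR) and -0.99 ± 0.09 (adjusted p = 6.24e-10). In size it was the largest change of the 10, and 24.9% of all genes tested had a larger absolute change in control mice.

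Yme1l1 (ENSMUSG00000026775.9, chr2:23156369-23199260), the ATP-dependent protease that cuts Opa1 at another site and turns over inner membrane proteins, rose. It had 113, 140 and 154 CPM in control mice at thermoneutrality (lowest, median, highest) and 186, 177, 180, 185 and 175 CPM in the 5 control mice after cold. The mice labelled KO had 122, 127 and 148 CPM, then 168, 183 and 195 CPM. The groups did not overlap, with log2 fold changes of 0.38 ± 0.07 (SE, adjusted p = 1.16e-05, edgeR) and 0.47 ± 0.06 (adjusted p = 1.14e-07). With library size alone the value in mice labelled KO did not pass, at 0.16 (adjusted p = 0.110, edgeR), and neither did Mfn2, at 0.08 (adjusted p = 0.318).

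On the fission side, Dnm1l changed least among the genes that rose in both genotypes, and its receptors differed. Dnm1l (ENSMUSG00000022789.14, chr16:16312230-16358959) had 88.1, 106 and 119 CPM in control mice at thermoneutrality and 126, 129, 132, 116 and 113 CPM in the 5 control mice after cold, which overlapped. In mice labelled KO, 101, 106 and 110 CPM were followed by 113, 131 and 138 CPM, with no overlap. The log2 fold changes were 0.20 ± 0.06 (SE, adjusted p = 0.00731, edgeR) and 0.26 ± 0.06 (adjusted p = 0.000432). The call in control mice was lost in a fit to only the 2 groups compared, with 0.16 and an adjusted p of 0.0505 in edgeR. With upper-quartile factors both calls were lost, at 0.10 and 0.10, and with library size alone the values were 0.09 and -0.06.

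Mff (ENSMUSG00000026150.14, chr1:82724890-82752394), the main anchor for Drp1 in most mammalian cells, rose the most of the 10 in either genotype. Its lowest, median and highest levels were 83.6, 86.5 and 95.1 CPM in control mice at thermoneutrality, and the 5 control mice had 144, 139, 153, 140 and 141 CPM after cold. The levels with the KO label were 84.2, 88.3 and 92.9 CPM, then 135, 145 and 167 CPM. No groups overlapped, and the log2 fold changes were 0.70 ± 0.05 (SE, adjusted p = 4.22e-12, edgeR) and 0.73 ± 0.05 (adjusted p = 2.80e-13). A gene on the opposite strand, C430014B12Rik, shares 195 exon bases with Mff and had 536 counts over all mice against 51857 for Mff.

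Mief1 (ENSMUSG00000022412.12, chr15:80234018-80253371) and Mief2 (ENSMUSG00000018599.5, chr11:60728398-60732951) encode paralogous Drp1 receptors, and Mief1 alone passed the threshold. Mief1 had 47.4, 49.7 and 53.7 CPM in control mice at thermoneutrality and 64.8, 65.5, 71.9, 67.5 and 68.1 CPM in the 5 control mice after cold. The mice labelled KO went from 43.5, 47.6 and 52.2 CPM to 66.5, 72.0 and 80.2 CPM (lowest, median, highest). All mice at 5 °C were above all at thermoneutrality, and the log2 fold changes were 0.43 ± 0.05 (SE, adjusted p = 1.17e-07, edgeR) and 0.60 ± 0.05 (adjusted p = 4.94e-11). Mief2 had 28.3, 35.9 and 41.9 CPM in control mice at thermoneutrality and 41.3, 31.3, 38.3, 33.1 and 36.2 CPM in the 5 after cold, and its ranges overlapped. Its log2 fold changes were 0.02 with a 95% interval of -0.19 to 0.22 and 0.08 with an interval of -0.11 to 0.26 (adjusted p = 0.873 and 0.461, edgeR).

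Fis1 (ENSMUSG00000019054.13, chr5:136953275-136966234), a small tail-anchored protein of the outer membrane, had 28.5, 31.9 and 34.5 CPM in control mice at thermoneutrality and 37.8, 35.7, 32.9, 34.1 and 34.9 CPM in the 5 control mice after cold. In mice labelled KO the levels were 24.3, 27.7 and 32.4 CPM, then 30.5, 34.7 and 41.2 CPM, and the groups overlapped in both genotypes. The log2 fold change was 0.17 ± 0.07 (SE, adjusted p = 0.0525, edgeR) in control mice and 0.32 ± 0.07 (adjusted p = 0.000201) with the KO label. The difference between these responses was 0.15 ± 0.10 (adjusted p = 0.485, edgeR), so that they were not shown to differ. The call with the KO label was lost with library size alone (-0.0060, adjusted p = 0.964, edgeR) and stood at 0.16 with upper-quartile factors (adjusted p = 0.0495). Without control replicate 18 at 5 °C the value in control mice passed, at 0.19 (adjusted p = 0.0422, edgeR).

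Ratios of counts within a library do not depend on the scaling between libraries. They were formed for 6 pairs of members and are given as descriptions. The log2 ratio of Oma1 to Yme1l1 was -3.84 to -3.34 in control mice at thermoneutrality and -5.40 to -4.87 after cold, and -4.03 to -3.46 and -5.49 to -4.79 in mice labelled KO. Its mean moved by -1.43 and -1.46, without overlap, since Oma1 fell while Yme1l1 rose. The ratio of Mff to Fis1 went from 1.28 to 1.65 up to 1.93 to 2.22 in control mice and from 1.48 to 1.94 up to 2.01 to 2.22 in mice labelled KO, again without overlap. The ratio of Mief1 to Mief2 had a mean of 0.51 in both genotypes at thermoneutrality and 0.91 and 1.04 after cold, with overlap in control mice and none with the KO label. The mean ratio of Mfn2 to Mfn1 was 1.91 and 1.87 before cold and 1.62 and 1.70 after, with overlap in both. Opa1 to Dnm1l, the inner membrane fusion GTPase over the fission GTPase, went from 1.23 ± 0.11 (SD, n = 7) to 1.02 ± 0.07 (SD, n = 5) in control mice without overlap, and from 1.19 ± 0.07 to 1.01 ± 0.15 (SD, n = 7 each) in mice labelled KO with overlap. Mfn2 to Dnm1l overlapped in both, at means of 1.45 and 1.54 in control mice and 1.38 and 1.53 in mice labelled KO.

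**Figure D3:**
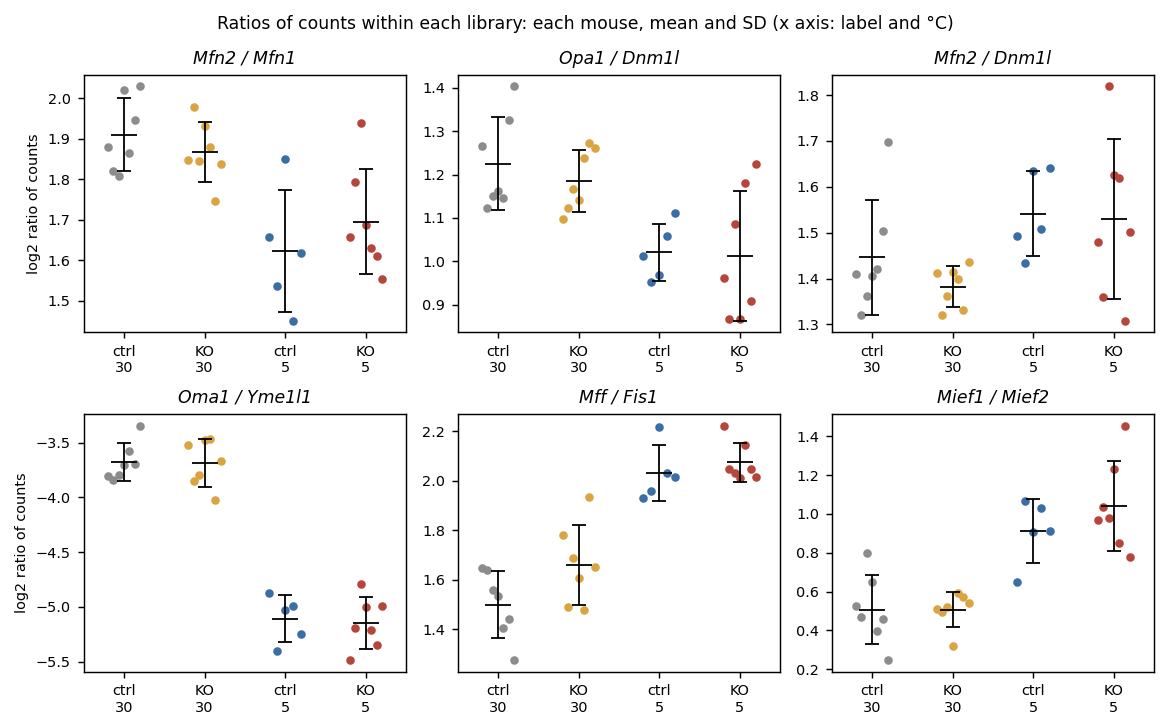
Log2 ratios of counts for 6 pairs of members in each mouse (y axis, a scale of its own in each panel), by label and temperature in °C, with the mean and SD in black. Oma1/Yme1l1 falls from around -3.7 to around -5.1 and Mff/Fis1 rises by 0.53 and 0.41 in the mean, each with no overlap within a genotype, while Mfn2/Dnm1l overlaps in all groups.

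The KO label was compared with control at each temperature, to ask whether these genes differed with the genotype. No member passed the threshold. At thermoneutrality 0 of 10 passed, where 0.081% of all genes did, and the log2 fold changes lay between -0.15 and 0.00. At 5 °C 0 of 10 passed, against 0.139% of all genes, and the values lay between -0.05 and 0.10. For the difference of the cold responses 0 of 10 passed, against 1.16% of all genes, with values from -0.01 to 0.17. With so few calls among all genes, 0 of 10 is what the background would give.

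An unadjusted p below 0.05 was seen for 1, 0 and 1 members in these 3 comparisons, where 7.65%, 13.4% and 16.2% of all genes had one, and DESeq2 also called 0 members in each. They were Fis1 at thermoneutrality, with -0.15 ± 0.07 (SE, adjusted p = 0.595, edgeR), and Mief1 in the difference of the cold responses, with 0.17 ± 0.07 (adjusted p = 0.256). Mief1 at 5 °C was 0.10 ± 0.05 (adjusted p = 0.418, edgeR). The ranges of mice with and without the label overlapped for all 10 members at both temperatures, against 0.249% and 1.11% of all genes without overlap. The 95% intervals at thermoneutrality reached from -0.30 for Fis1 to 0.12 for Oma1. At 5 °C they reached from -0.26 for Oma1 to 0.22 for Mief1, and differences within each gene's interval could not be seen in these data. The label comparisons use the same mice as the cold comparisons, so that a low level in 1 group enters several values. Scaling by library size alone shifted the all-gene median, which was -0.02 and became 0.13 at thermoneutrality, was 0.02 and became -0.03 at 5 °C, and was 0.04 and became -0.15 in the difference. In these comparisons 8, 5 and 9 of the 10 signs turned under that scaling. Relative to that median, 2 members lay above and 8 below at thermoneutrality under each of the 4 scalings, 4 or 5 lay above at 5 °C and 6 or 7 in the difference. Agreement between scalings is again no separate evidence, because the median moves with the genes. The summed level of the nuclear-retained RNAs also differed with the label at 5 °C without overlap, at 14840 to 16273 CPM in control mice and 10340 to 13577 CPM in mice labelled KO, and its part in these values was not tested.

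**Figure D4:**
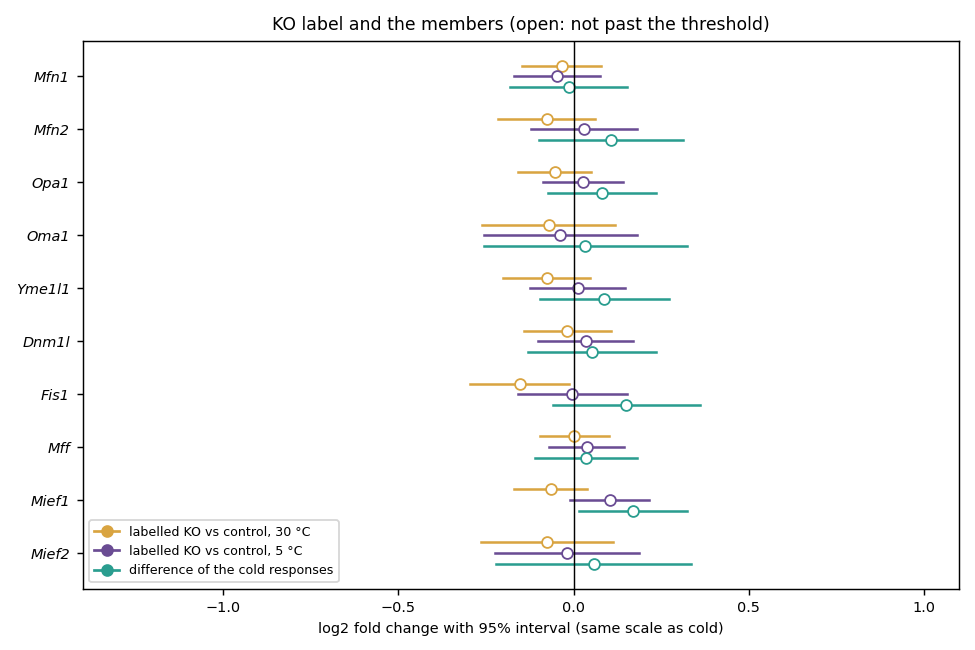
Log2 fold changes of the 10 members (x axis, points with 95% intervals, on the same scale as for cold) for the KO label at 30 °C, at 5 °C and for the difference of the cold responses. All 30 points are open, since no member passed the threshold, and they lie between -0.15 and 0.17.

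Over the 26 libraries, the genes whose log2 CPM was most like that of Mfn1 were Idh3a (Pearson r = 0.978), a subunit of isocitrate dehydrogenase of the citric acid cycle, Celf2 (0.977) and Cdkn1a (0.977). The most like Mfn2 were Vwa8 (0.947), Sik2 (0.936) and Zbtb38 (0.924). For Opa1 they were Ndufs1 (0.846) and Ndufa9 (0.803), subunits of respiratory complex I, and Dlst (0.816), a subunit of the oxoglutarate dehydrogenase complex. For Dnm1l they were Suz12 (0.918), Ppig (0.911) and U2surp (0.903). These values describe libraries that share the same 4 groups. Between members, Mff and Mief1 had r = 0.959 over all libraries and 0.470 once the group means were taken out, and Mfn1 and Oma1 had -0.897 and 0.132.

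Related genes were taken as 47 genes in 6 lists, of which 46 were tested (Gdap1 had too few counts). Of these 46, 28 rose and 8 fell after cold in control mice, and 32 rose and 5 fell in mice labelled KO, with median log2 fold changes of 0.32 and 0.42, on the same background as above. The lists of cristae organization and of transport along microtubules held no gene that fell in either genotype, and other fission factors were split.

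Of 6 other fusion factors, 4 rose and 1 fell in each genotype. They included Pld6, a phospholipase of the outer membrane, which had log2 fold changes of 1.64 and 1.10 in control mice and mice labelled KO. Slc25a46, an outer membrane protein, rose by 0.97 and 1.06, and Stoml2, a scaffold of the inner membrane, by 0.45 and 0.65. Among the 8 other fission factors tested, 3 rose and 3 fell in control mice, and 3 rose and 1 fell in mice labelled KO. Mtfr2 rose by 3.06 and 2.30 from 0.27 and 0.32 CPM, a low level, Mtfr1 by 0.81 in both, and Mtfp1, a protein of the inner membrane, by 0.71 and 0.76.

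Proteins that modify Drp1 include enzymes that attach or remove ubiquitin, SUMO or phosphate. Of 8, 4 rose and 2 fell in control mice and 5 rose and 2 fell in mice labelled KO. Senp5, a SUMO protease, rose by 1.18 and 1.13, March5, a ubiquitin ligase of the outer membrane, by 1.13 and 1.16, and Pgam5, a phosphatase, by 0.99 and 0.89. Akap1, which anchors protein kinase A at the outer membrane, was chosen after its values were seen and had -0.72 in each genotype, from 271 to 165 CPM in control mice.

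The 11 genes of cristae organization (the MICOS complex and its partners) had 6 that rose in control mice and 10 in mice labelled KO. Dnajc11 rose by 1.543 and 1.504, Mtx2, a part of the import machinery of the outer membrane, by 0.89 and 0.98, and Minos1, a core MICOS subunit, by 0.45 and 0.49. No gene of this list passed the threshold for the difference between the genotypes. Of 8 genes for proteolysis in the inner compartments and the prohibitins, 6 rose and 2 fell in control mice and 6 rose and 1 fell in mice labelled KO. Phb, a prohibitin, rose by 0.64 and 0.81, and Afg3l2, a protease of the matrix side, by 0.72 and 0.59. Htra2, a protease between the membranes, fell like Oma1, by 0.48 and 0.36. All 5 transport genes rose in control mice and 4 did in mice labelled KO, with Kif5b, a kinesin heavy chain, at 0.97 and 0.87, Trak2, an adaptor, at 0.86 and 1.00, and Rhot1, the Miro GTPase, at 0.58 and 0.60. These named genes passed the threshold in both genotypes in edgeR's quasi-likelihood test, under every setting tried in which they were tested.

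**Figure D5:**
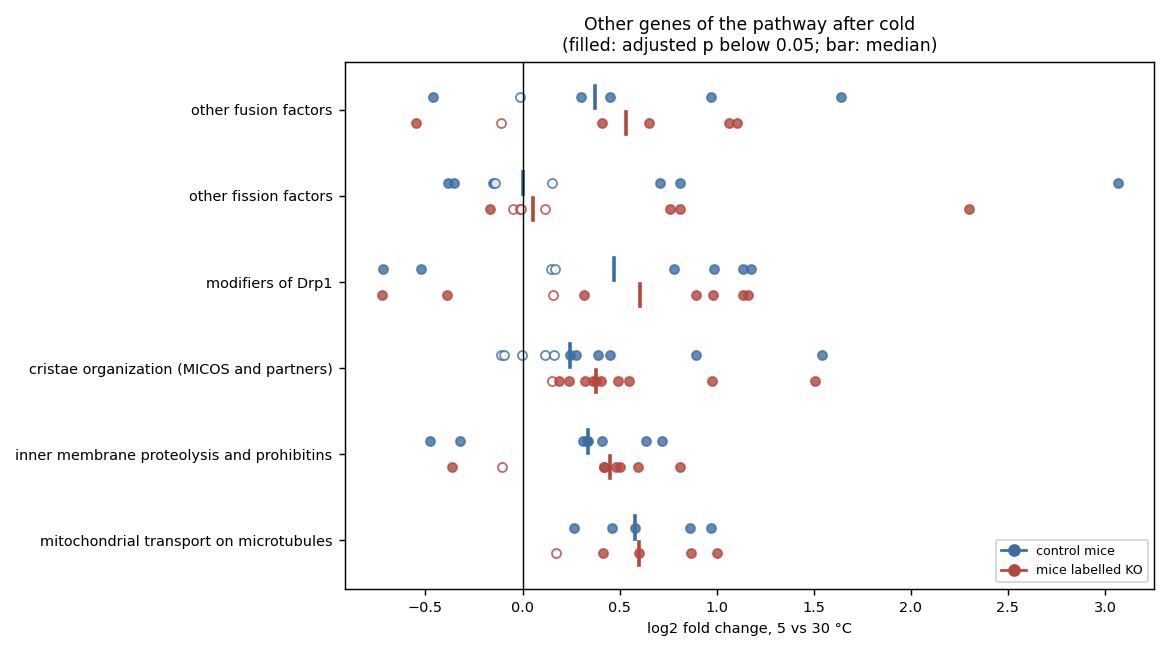
Log2 fold changes after cold of the 46 tested genes in 6 lists around the members (x axis), in control mice (blue) and mice labelled KO (red), filled where the adjusted p was below 0.05, with a bar at each list's median. Most points lie to the right of 0, with Mtfr2 farthest at 3.06 and 2.30, and the other fission factors have medians of 0.00 and 0.05.

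For the KO label, 0 of the 46 genes passed at either temperature in edgeR. An unadjusted p below 0.05 was seen for 7 at thermoneutrality and 6 at 5 °C (7.65% and 13.4% of all genes). For the difference of the cold responses 1 passed, and 10 had an unadjusted p below 0.05 (16.2% of all genes). DESeq2 called 0, 0 and 2, the latter being Spire1 and Sh3glb1, a membrane-shaping protein named after its values were seen. Spire1, whose product nucleates actin where mitochondria divide, went from 43.3 to 33.2 CPM in control mice and from 36.6 to 39.6 CPM in mice labelled KO. Its log2 fold changes were -0.38 ± 0.09 (SE, adjusted p = 0.000699, edgeR) and 0.11 ± 0.08 (adjusted p = 0.226), and their difference was 0.50 ± 0.12 (adjusted p = 0.0452). The call was lost when any of 19 of the 26 mice was left out, with library size alone (0.29, adjusted p = 0.368), with upper-quartile factors (0.44, adjusted p = 0.0594), without a filter (0.49, adjusted p = 0.111) and without the 4 libraries of high muscle markers (0.51, adjusted p = 0.0597, all edgeR).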

How the data were processed

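RNA-sequencing of BAT from 26 mice was used as deposited counts per gene, without normalization. Per the study's methods, the authors made them from rRNA-depleted, stranded libraries read as 100-bp single ends, aligned to mm10 with STAR 2.5.2b and counted with featureCounts 1.5.2. Whether the counting used strand is not given in the sources used here. Of 50686 genes, 50376 had a symbol (GENCODE M21), and filterByExpr left 17286. One term for each group was fitted with edgeR 4.0.16 (legacy quasi-likelihood mode, as in the authors' edgeR 3.22.0) in R 4.3.3, with TMM factors and Benjamini-Hochberg adjustment over all genes, threshold 0.05. Intervals are 95%, log2 CPM had a prior count of 2, and promoter windows came from RefSeq. The code was tested on simulated data. No pair of mice within a group differed by less than sampling noise (73 pairs). The labels do not give litters or cages, and each mouse is a replicate.

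Groups came from the labels. The members and lists were chosen with earlier results of these data known. All members are named, and of each related list the 3 genes with the largest mean cold change among those past the threshold in both genotypes, every gene past it for the label or the difference, and the 3 genes most like Mfn1, Mfn2, Opa1 and Dnm1l. Settings tried were DESeq2 1.42.0, other scalings and filters, other edgeR modes, a fit to only the groups compared and leaving out each mouse. A setting without the 4 libraries above 3000 CPM of muscle markers was chosen after seeing the data.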

Additional observations from a re-analysis of the deposited data

Results flagged for a closer look

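Oma1 in control replicate 3 at thermoneutrality had 9.75 CPM, below the other 6 control mice, of which the nearest had 10.7 CPM. Its gap to that mouse was 0.612 of the group's range. Across the 40 combinations of member and group examined, this was the only one so far from the rest. Chance alone gives about 1 in 20 for each combination, so that 1 among 40 is no more than chance would give. The Oma1 value remained above every mouse at 5 °C.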

How the results depend on the processing

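Mfn1, Mff, Mief1 and Oma1 kept their direction and their call for cold in both genotypes under all settings tried. Signs changed for values near 0, and with library size alone also for Fis1 and Dnm1l in mice labelled KO, which were 0.32 and 0.26 with TMM factors. With library size alone, 3 members rose and 2 fell in mice labelled KO, with Opa1 at -0.24, Dnm1l at -0.063, Fis1 at -0.0060 and Mief2 at -0.24, and Opa1 and Mief2 had -0.12 in control mice. Spire1 was -0.21 in mice labelled KO, Afdn 0.15 at thermoneutrality, and the differences of the cold responses of Fis1 and Mief1 were -0.042 and -0.035. This setting also moved the median of all genes. With upper-quartile factors Opa1 and Mief2 were -0.11 and -0.085 in control mice and -0.076 and -0.078 in mice labelled KO, Spire1 was -0.046 and Afdn 0.021. In control mice, Opa1 was -0.00080 with TMM factors from nuclear genes, -0.0046 without a filter, -0.043 with at least 10 counts in every mouse, -0.044 in a fit to only the groups compared and -0.030 without the 4 libraries of high muscle markers, and Mief2 was -0.025 both with at least 10 counts and in the fit to only the groups compared. Afdn at thermoneutrality was 0.0039 without a filter, 0.0020 with at least 10 counts and 0.0052 in the fit to only the groups compared. Leaving out single mice gave Opa1 from -0.038 to 0.028, Mief2 from -0.034 to 0.065 and Afdn from -0.048 to 0.056. The counts of all genes past the threshold for the label depended on the setting. At thermoneutrality there were 14, with 48 by DESeq2, 34 with library size alone, 9 without a filter and 102 without the 4 libraries, and at 5 °C there were 24, with 197, 5 and 15 under the first 3 of these, 45 with at least 10 counts and 9 in a fit to only the groups compared. The difference had 200, with 488 by DESeq2 and 27 without a filter. Leaving out single mice gave 7 to 93, 7 to 100 and 49 to 371, the highest at thermoneutrality and in the difference without control replicate 7 at thermoneutrality. That mouse had the lowest mitochondrial share (14.3%) and the highest TMM factor (1.29) of all libraries. It was also among the 4 libraries of high muscle markers, with 5137 CPM. The cause of these ranges was not tested. No paired analysis was possible because the groups share no replicate numbers. Oma1 had the fewest counts of the members, as few as 59 in a mouse, and an SE of 0.10 for cold in control mice, close to that of Mief2 at 0.099. Whether depth limits either was not tested.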
